A study of Mus musculus with 20 samples.

Results

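The nuclear genes of respiratory chain complexes III and IV, of ATP synthase (complex V) and of cytochrome c were followed in hearts and femur muscles of mice with a knockdown of Taz. Members were the protein-coding genes in both deposited count tables whose GENCODE symbol starts with Uqcr, Uqcc, Cox4 to Cox8, Cox10 to Cox19 or Atp5, together with Cyc1, Cycs and Ndufa4l2. This gave 57 genes of the 21637 protein-coding genes and 46649 genes in all that the tables share: 12 for complex III, 27 for complex IV, 17 for complex V, and Cycs. RNA was sequenced from hearts of 5 Taz-KD and 5 WT mice and from femur muscles of 5 other Taz-KD and 5 other WT mice, with 1 library per mouse.

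The Taz-KD animals carry a tetO-driven short hairpin RNA against Taz at ROSA26 (ROSA26H1/tetO-shRNA:TAZ), and the WT animals are C57BL/6N. Both genotypes ate chow with 625 mg/kg doxycycline, which switches the hairpin on, until 20 weeks of age. The labels name no cell type to which the hairpin is restricted, and whole tissue was used, so that fewer cells of a type and less RNA per cell cannot be told apart. The libraries of a group are separate mice, but whether these came from separate litters is not given in the sources used here, so that p-values measure the spread between these animals. Taz, which encodes the cardiolipin transacylase tafazzin, measured 11.7 ± 0.731 CPM in Taz-KD hearts and 37.8 ± 1.40 CPM in WT hearts, and 13.4 ± 1.05 CPM in Taz-KD muscle and 51.7 ± 3.42 CPM in WT muscle (CPM, scaled counts relative to library size; SD, n = 5; p = 0.00794 in each tissue, exact two-sided permutation test, the smallest p that 252 arrangements allow).

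Complex III passes electrons from ubiquinol to cytochrome c, complex IV passes them from cytochrome c to oxygen, and both pump protons across the inner mitochondrial membrane, whose signature lipid is cardiolipin. ATP synthase lets the protons flow back through a ring of c subunits and makes ATP. Complex IV is unusual in that several of its small subunits exist in 2 forms, 1 found in most tissues and 1 enriched in heart and skeletal muscle, and in that many assembly factors insert its copper and heme. Cytochrome b of complex III, the catalytic core of complex IV and the a subunit of ATP synthase are encoded in mitochondrial DNA and are not among the members.

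Total counts ran from 26963288 to 35301909 per heart library and from 36429399 to 74361382 per muscle library. The members took 1.50% to 1.62% of all counts in Taz-KD hearts and 1.59% to 1.72% in WT hearts. In muscle they took 1.09% to 1.68% in Taz-KD and 1.22% to 2.16% in WT. In hearts the cardiomyocyte markers passed the filter on low counts (11 of 11 tested), and in muscles the fast myofibre markers did (9 of 9 tested). Of the latter, Tnnc2 was near the floor, at 0.558 CPM in Taz-KD muscle and 0.793 CPM in WT muscle. Some libraries stood apart. The heart libraries Taz-KD R1793 and WT R3 had the highest summed adipocyte markers of their genotype (123 and 45.6 CPM, with 52.01 and 8.40 CPM of Ucp1, the uncoupling protein of brown fat). Of the muscles, WT A33 had the highest adipocyte sum (1171 CPM) and WT A55 the highest slow myofibre sum (22303 CPM) with the lowest fast myofibre sum (35873 CPM). Where a result turns on one of these libraries, its value without it is given as well. Of the 57 members, 55 had enough counts to be tested in both tissues. Cox7b2 and Cox8c, forms known mainly from testis, did not, with 0 counts in heart, 0 counts of Cox7b2 in muscle and 1 count of Cox8c in muscle over all libraries.

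In heart, tissue isoforms of complex IV moved in opposite directions. The muscle-enriched forms Cox7a1 and Cox8b fell to 46.3% and 49.7% of their WT level, while their widely expressed partners Cox7a2 and Cox8a rose to 117% and 196%. Of the 12 complex III members 3 were lower past the test (25%, against 10.3% of all genes tested), led by Uqcrfs1 at 68.7% of WT. None was higher, against 14.4% of all genes. Complex V stayed closer to WT, with 2 of 17 lower (Atp5g3 and Atp5e, 11.8% against 10.3% of all genes) and none higher. In all, 5 of the 55 members were higher (9.09%, against 14.4% of the 19486 genes tested) and 9 were lower (16.4%, against 10.3%) at an adjusted p under 0.05 (edgeR, adjusted over all genes). That makes 14 members called or 25.5%, against 24.6% of all genes, so that the share of members called was close to the background and is no result about the members. The 5 Taz-KD libraries lay wholly above or below the 5 WT libraries for 9 members (16.4%), against 18.3% of all genes. The median log2 fold change was -0.06 over the members and -0.02 over all genes tested. The summed slow myofibre markers were 14743 to 18557 CPM in Taz-KD hearts and 18648 to 23397 CPM in WT hearts (8 genes, 3 of 7 tested lower), and the endothelial markers 718 to 803 CPM in Taz-KD and 869 to 1036 CPM in WT (3 of 7 lower). The cardiomyocyte markers were 43630 to 58840 CPM in Taz-KD and 46122 to 62212 CPM in WT (2 of 11 lower, Pln and Myl3), with no marker of these lists at 0. The summed skeletal myofibre markers were 1566 to 2419 CPM in Taz-KD and 1017 to 1465 CPM in WT (1 of 7 tested higher, Acta1, 1 lower, Mybpc2, and 1 of 9 at 0). This sum was nearly all Ckm (1042 CPM in Taz-KD, 1022 CPM in WT) and Acta1 (783 CPM in Taz-KD, 222 CPM in WT). The largest part of the slow myofibre sum was Atp2a2 (10001 CPM in Taz-KD, 14086 CPM in WT). Its Myl2 and Myl3 are cardiomyocyte markers as well. In heart both sums thus follow a few genes and do not measure cells. Red cell markers were 289 to 457 CPM in Taz-KD and 421 to 741 CPM in WT (3 of 5 lower), fast myofibre markers 3.41 to 4.17 CPM in Taz-KD and 4.20 to 5.69 CPM in WT (0 of 4 tested called, 1 of 9 at 0), and of 4 tested adipocyte markers Cidea was higher (log2 fold change 0.66, adjusted p = 0.00734, edgeR). Smooth muscle markers were 241 to 1131 CPM in Taz-KD and 237 to 915 CPM in WT (0 of 4 called). The high values were those of R1793, R1797 and R1798 (1131, 836 and 569 CPM) and of WT R3 (915 CPM). Fibroblast markers were 840 to 1546 CPM in Taz-KD and 1034 to 2326 CPM in WT. For macrophage markers these ranges were 155 to 200 CPM and 181 to 254 CPM (0 of 7 called in each list). The part of cell make-up in the changes below was not tested. Of the 57 members, 26 have a transcript of another gene with at least 95% identity over at least 150 bases, and reads of these can be shared.

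**Figure D1:**
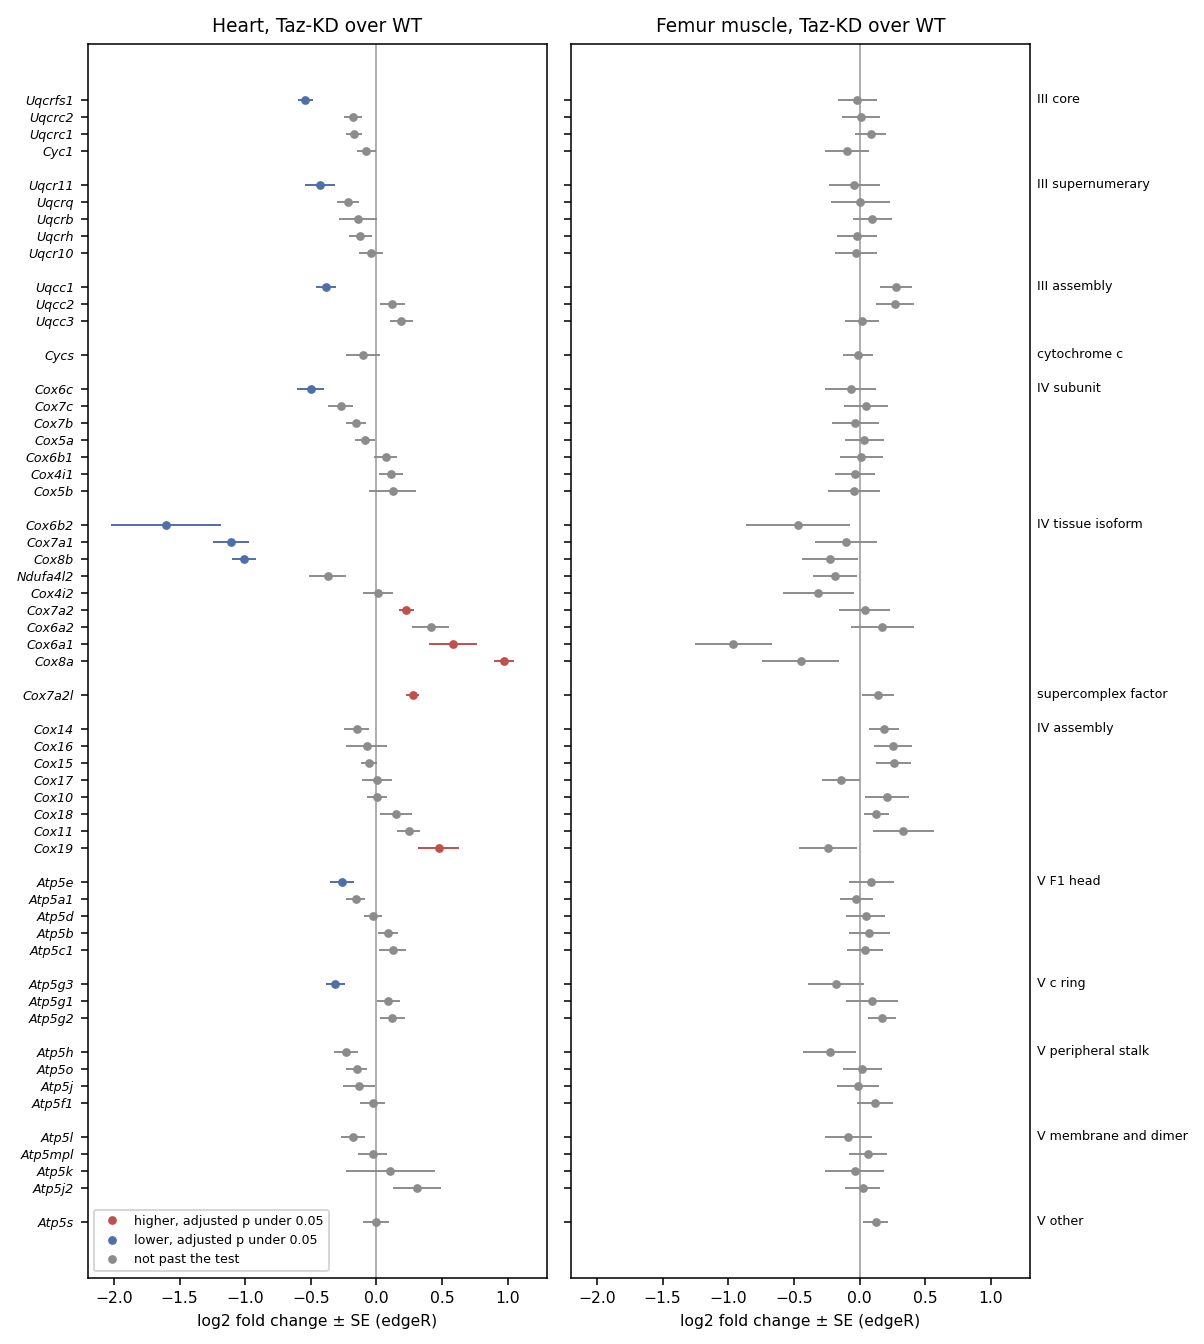
Log2 fold change of Taz-KD over WT with its standard error (edgeR) for the 55 tested members in heart (left) and femur muscle (right), grouped by complex and role. In heart 5 members are higher (red) and 9 lower (blue) past an adjusted p of 0.05, most of them tissue isoforms of complex IV and subunits of complex III; in muscle no member passes.

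COX7A is a small membrane subunit of complex IV. Cox7a1, its heart and skeletal muscle form (ENSMUSG00000074218, chromosome 7 from 30184144 to 30186078 of GRCm38), measured 184, 123, 144, 123 and 163 CPM in the Taz-KD hearts R2, R1793, R1796, R1797 and R1798, against 271, 403, 275, 320 and 322 CPM in the WT hearts R3, R1791, R1792, R1795 and R1800. The highest Taz-KD heart lay well below the lowest WT heart. Its log2 fold change was -1.11 with a standard error of 0.14 (adjusted p = 0.000133, edgeR). Cox7a2, the form of most other tissues (chromosome 9 from 79755361 to 79759878), measured 150, 133, 143, 133 and 148 CPM in Taz-KD hearts, against 115, 127, 118, 121 and 122 CPM in WT hearts, in the same order of animals. These groups did not overlap either, though the gap was small. The log2 fold change was 0.23 with a standard error of 0.06 (adjusted p = 0.0101, edgeR); without the hearts R2 and R3 it was 0.19 (adjusted p = 0.0548), and in 1 fit of all 20 libraries it was 0.20 (adjusted p = 0.492, edgeR).

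Per length, Cox7a1 measured 770 ± 91.9 TPM and Cox7a2 421 ± 8.77 TPM in Taz-KD hearts, against 1712 ± 236 TPM and 369 ± 17.2 TPM in WT hearts (TPM, counts relative to the summed exon length of the gene and to the library; SD, n = 5). This length can exceed that of the transcript in use, so that shares between genes depend on it. As a share of the summed TPM of the pair, Cox7a1 took 68.4%, 62.1%, 64.0%, 61.9% and 66.1% in Taz-KD hearts and 80.6%, 84.8%, 80.5%, 82.3% and 82.4% in WT hearts. The heart form thus stayed the larger part of the pair in every heart, and the 2 genotypes were separated by a wide gap. The rise of Cox7a2 was far smaller in TPM than the fall of Cox7a1, so that the sum of both forms measured 1190 ± 90.5 TPM in Taz-KD hearts and 2081 ± 241 TPM in WT hearts (57.2%, with no overlap).

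COX8 is the smallest subunit of complex IV. Cox8b, the heart and muscle form, which is a pseudogene in humans (ENSMUSG00000025488, chromosome 7 from 140898945 to 140900446), measured 77.9, 61.3, 77.4, 66.3 and 67.9 CPM in Taz-KD hearts, against 122, 134, 134, 162 and 153 CPM in WT hearts. All Taz-KD hearts lay below all WT hearts (log2 fold change -1.01 ± 0.09 SE, edgeR adjusted p = 7.96e-06). Cox8a, the widely expressed form (chromosome 19 from 7215153 to 7217616), measured 128, 156, 123, 128 and 119 CPM in Taz-KD hearts, against 67.1, 65.0, 61.2, 69.5 and 70.3 CPM in WT hearts. It had the smallest adjusted p of all members (log2 fold change 0.97 ± 0.08 SE, edgeR adjusted p = 2.57e-06), and its highest library, R1793, was also the heart with the highest adipocyte sum. Without R1793 and R3 the log2 fold change was 0.90 (adjusted p = 7.33e-06, edgeR).

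In TPM, Cox8a was the more abundant form in 3 of 5 Taz-KD hearts and in 0 of 5 WT hearts. That count depends on the exon lengths used, 619 bases for Cox8a and 360 bases for Cox8b. In CPM, Cox8a was above Cox8b in every Taz-KD heart and below it in every WT heart. Per length, Cox8b measured 547 ± 38.7 TPM and Cox8a 598 ± 103 TPM in Taz-KD hearts, against 1128 ± 71.8 TPM and 311 ± 20.0 TPM in WT hearts. Cox8b took 51.2%, 40.3%, 52.03%, 47.1% and 49.5% of the pair in Taz-KD hearts and 75.8%, 78.0%, 79.1%, 80.1% and 78.9% in WT hearts. The lowest share was again that of R1793. The sum of both forms was 1145 ± 101 TPM in Taz-KD hearts and 1439 ± 71.9 TPM in WT hearts (79.6%, with no overlap). This lower sum depends on the exon lengths too, since Cox8b counts are divided by the shorter one. Without a length, mean Cox8a and Cox8b were 131 and 70.2 CPM in Taz-KD hearts, against 66.6 and 141 CPM in WT hearts. In CPM the rise of Cox8a was nearly as large as the fall of Cox8b, and the sums of the genotypes overlapped.

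The promoters of these 4 genes are printed because their transcripts carry the change in isoform make-up. They are RefSeq sequences of GRCm38.p6, 300 bases long, from 250 bases before the transcription start site to 50 bases after it, for Cox8a chr19:7217567-7217866 (minus strand), Cox8b chr7:140900397-140900696 (minus strand), Cox7a1 chr7:30183921-30184220 (plus strand) and Cox7a2 chr9:79759804-79760103 (minus strand). Capitals mark matches, on either strand, to short core motifs of regulators known from respiratory genes: NRF1 (TGCGCA), ETS factors such as GABP (CCGGAA), ERR (AAGGTCA), YY1 (AAGATGG), SP1 (GGGCGG), CREB-type factors (TGACGT) and MEF2 (its standard site).
Cox8a: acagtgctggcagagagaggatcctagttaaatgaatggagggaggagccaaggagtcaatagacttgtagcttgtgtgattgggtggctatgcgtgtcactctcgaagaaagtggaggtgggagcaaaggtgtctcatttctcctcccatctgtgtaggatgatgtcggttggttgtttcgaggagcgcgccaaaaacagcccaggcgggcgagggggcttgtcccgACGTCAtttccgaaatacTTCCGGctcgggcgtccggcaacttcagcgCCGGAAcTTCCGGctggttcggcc
Cox8b: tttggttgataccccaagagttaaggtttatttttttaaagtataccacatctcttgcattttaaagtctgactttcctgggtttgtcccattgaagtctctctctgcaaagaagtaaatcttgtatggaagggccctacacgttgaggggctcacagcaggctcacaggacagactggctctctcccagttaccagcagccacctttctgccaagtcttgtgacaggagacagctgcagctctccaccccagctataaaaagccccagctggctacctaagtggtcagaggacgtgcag
Cox7a1: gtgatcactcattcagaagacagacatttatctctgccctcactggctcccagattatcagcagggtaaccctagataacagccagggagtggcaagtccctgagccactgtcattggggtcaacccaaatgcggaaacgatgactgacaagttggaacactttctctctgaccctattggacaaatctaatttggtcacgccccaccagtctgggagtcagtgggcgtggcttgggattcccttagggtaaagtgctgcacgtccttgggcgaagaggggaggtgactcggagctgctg
Cox7a2: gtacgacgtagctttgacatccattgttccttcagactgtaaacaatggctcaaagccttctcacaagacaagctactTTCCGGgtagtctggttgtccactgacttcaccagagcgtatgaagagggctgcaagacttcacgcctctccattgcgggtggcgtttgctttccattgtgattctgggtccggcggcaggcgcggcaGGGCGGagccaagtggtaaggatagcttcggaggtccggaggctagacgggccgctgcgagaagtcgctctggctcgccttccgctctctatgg

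The 2 promoters of widely expressed forms printed here held such letters and the 2 of heart and muscle forms did not. Cox8a had 3 ETS matches and 1 CREB-type match and Cox7a2 had 1 ETS and 1 SP1 match, whereas Cox8b and Cox7a1 had no match to any of the 7 motifs. Cox6a1, the widely expressed form of the COX6A pair, had 1 ETS, 1 NRF1 and 2 SP1 matches, and the promoter of its partner Cox6a2 was not analysed here. A promoter was listed for 41 of the 57 members. An ETS match was present in 18 of these 41 (43.9%), against 14.9% of the 32841 promoters in the table, NRF1 in 14.6% against 7.76%, ERR in 12.2% against 4.72%, YY1 in 9.76% against 6.34%, SP1 in 43.9% against 35.7%, CREB-type in 14.6% against 7.51% and MEF2 in 0 against 0.557%. The C/EBP-ATF site TGATGNAA, searched in addition since ATF4 is the effector of the integrated stress response, was in 0 of the 41 and in 3.97% of all promoters. Of the 8 lower members with a promoter 3 had an ETS match and 2 an ERR match, and of the 5 higher members 3 and 0. A match is a run of letters and no binding site, and its absence says only that these letters are not in this window.

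**Figure D2:**
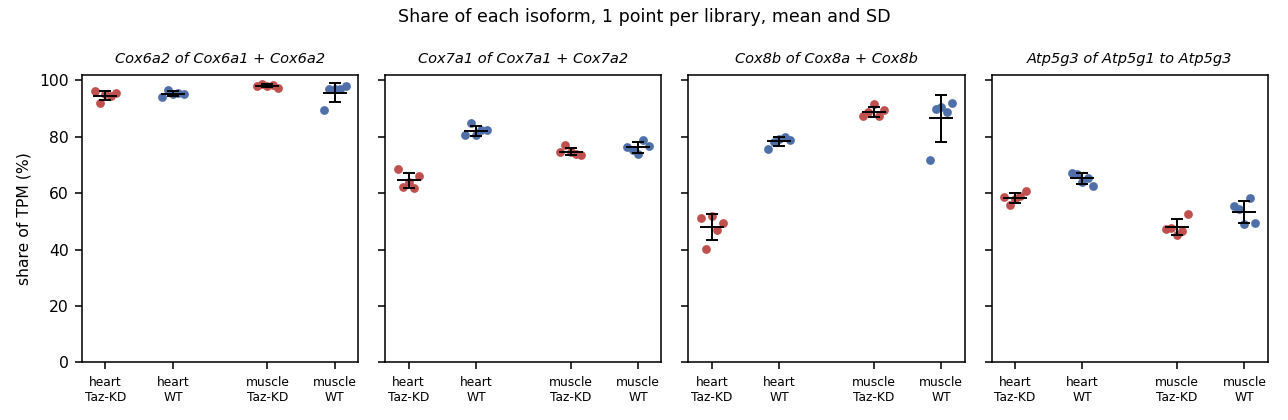
Share of the heart and muscle form in the summed TPM of its pair (COX6A, COX7A, COX8) and share of Atp5g3 in the 3 c subunit genes, in heart and muscle, with 1 point per library and mean ± SD. In heart the Taz-KD and WT libraries are separate for Cox7a1, Cox8b and Atp5g3 and overlap for Cox6a2; in muscle they overlap in all 4 panels, and WT A33 is the low point for Cox6a2 and Cox8b.

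The COX6A pair did not follow this pattern. Cox6a2, the heart and muscle form, measured 628, 516, 782, 515 and 631 CPM in Taz-KD hearts, against 357, 467, 425, 478 and 582 CPM in WT hearts, and the groups overlapped. Its log2 fold change was 0.41 with a standard error of 0.14 and missed the threshold by little (adjusted p = 0.0503, edgeR), while 7 of 22 alternatives called it higher, among them DESeq2 (adjusted p = 0.0287) and limma-voom (adjusted p = 0.0481). Cox6a1, the widely expressed form, measured 24.7, 47.0, 42.2, 32.2 and 31.1 CPM in Taz-KD hearts, against 23.4, 17.9, 22.5, 23.8 and 30.7 CPM in WT hearts. It rose (log2 fold change 0.58 ± 0.18 SE, edgeR adjusted p = 0.0375) with overlapping libraries, and the highest value was that of R1793. Without R1793 and R3 it no longer passed (log2 fold change 0.46, adjusted p = 0.123, edgeR). Cox6a2 made up 94.6% ± 1.68 of the pair in Taz-KD hearts and 95.2% ± 0.859 in WT hearts (SD, n = 5). The sum of both forms was 2672 ± 348 TPM in Taz-KD hearts and 2045 ± 239 TPM in WT hearts (131%). It was the only one of the 3 pair sums above WT. The sums of the genotypes did not overlap in TPM but did in CPM.

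The remaining tissue isoforms were low. Cox4i2, the lung and oxygen-responsive form of COX4, measured 4.23, 3.73, 4.40, 4.30 and 3.33 CPM in Taz-KD hearts, against 3.54, 3.68, 3.93, 4.48 and 4.20 CPM in WT hearts. Neither this nor the level of its partner Cox4i1 passed the test, and Cox4i2 held 1.15% ± 0.189 of the pair in Taz-KD and 1.22% ± 0.103 in WT. Ndufa4l2, the hypoxia-induced relative of the complex IV subunit NDUFA4, measured 7.56, 8.55, 8.86, 7.82 and 6.60 CPM in Taz-KD hearts, against 8.59, 7.93, 9.58, 11.3 and 13.5 CPM in WT hearts (adjusted p = 0.0766, edgeR). It shares 32 bases with Shmt2, on the other strand. Cox6b2, best known from testis, was lower (log2 fold change -1.60 ± 0.42 SE, edgeR adjusted p = 0.0150), on 52 counts over the 5 Taz-KD hearts and 139 counts over the 5 WT hearts. That is 0.320 ± 0.150 CPM in Taz-KD and 0.983 ± 0.573 CPM in WT, against 302 and 288 CPM of its partner Cox6b1, and the libraries overlapped.

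Cox7a2l encodes a relative of COX7A that has been linked to the joining of complexes III and IV into supercomplexes. Whether it has that role in mice of this strain was not tested. It measured 136, 130, 136, 128 and 129 CPM in Taz-KD hearts, against 104, 109, 106, 111 and 114 CPM in WT hearts. The rise was small but the groups did not overlap (121% of WT, log2 fold change 0.28 ± 0.05 SE, edgeR adjusted p = 0.00131). In 1 fit of all 20 libraries it was 0.25 (adjusted p = 0.137, edgeR). A processed pseudogene of Cox7a2l, Gm6969, with 98.0% identity over 342 bases, held 397 counts beside 37185 of the gene in heart.

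**Figure D3:**
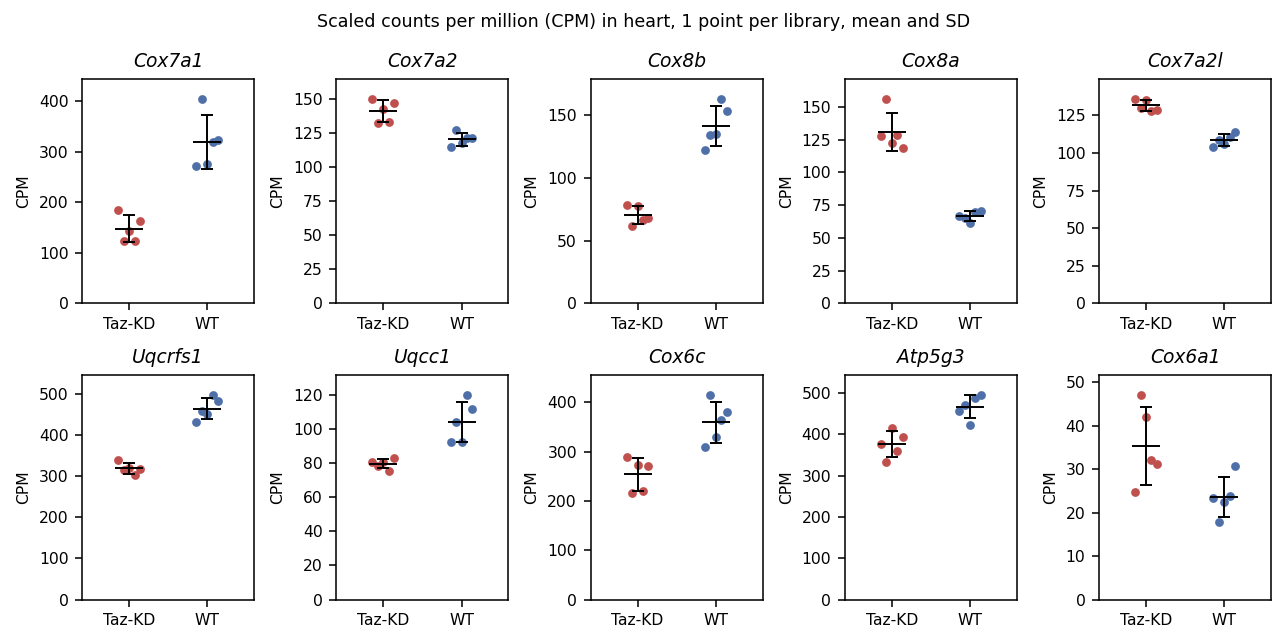
CPM in each heart library (5 Taz-KD on the left, 5 WT on the right of each panel; black, mean ± SD) for 10 called members. Cox7a1, Cox8b, Uqcrfs1, Uqcc1, Cox6c and Atp5g3 lie wholly below WT, Cox7a2, Cox8a and Cox7a2l wholly above it, and Cox6a1 overlaps.

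The 7 subunits of complex IV listed outside the tissue-enriched forms were mostly at their WT level. Only Cox6c, a small membrane subunit (chromosome 15 from 35925886 to 35938246), passed the test, with 289, 217, 273, 220 and 270 CPM in Taz-KD hearts, against 308, 414, 329, 364 and 380 CPM in WT hearts. All Taz-KD hearts lay below the WT hearts (70.7% of WT, log2 fold change -0.50 ± 0.10 SE, edgeR adjusted p = 0.00358). Cox6c overlaps Vps13b on the other strand by 250 bases, so that its level carries some uncertainty. Its other close matches, Cox6c2 and Gm16399, held 82 and 0 counts in heart beside 92970 of Cox6c. Cox7c, a small membrane subunit as well, measured 82.8% of WT and missed the threshold (log2 fold change -0.27 ± 0.09 SE, edgeR adjusted p = 0.0530), although 8 of 22 alternatives called it, DESeq2 among them (adjusted p = 0.0265). A processed pseudogene of Cox7c, Gm12338, with 100% identity over 192 bases, held 8464 counts beside 91274 of the gene in heart. The other 5 (Cox4i1, Cox5a, Cox5b, Cox6b1 and Cox7b) had log2 fold changes from -0.16 to 0.12.

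Of the 8 complex IV assembly factors in the rule, which insert heme or copper or bring subunits to the membrane, Cox19 alone passed the test. This intermembrane space protein of copper delivery measured 27.8, 34.1, 40.5, 22.6 and 24.7 CPM in Taz-KD hearts, against 21.6, 16.8, 22.4, 23.4 and 23.5 CPM in WT hearts. The groups overlapped, and the rise (log2 fold change 0.48 ± 0.16 SE, edgeR adjusted p = 0.0444) was lost in 14 of 22 alternatives, among them the fits without R1793 and R3 (0.43, adjusted p = 0.142) and without R2 and R3 (0.50, adjusted p = 0.0952, edgeR). The other 7, from the heme synthesis enzyme Cox10 to the insertase Cox18, had log2 fold changes from -0.15 to 0.24. Of 19 further complex IV assembly genes outside the rule none was higher and 2 were lower, against 14.4% and 10.3% of all genes. Their median was -0.04, and the lower ones were Higd2a, of the respirasome assembly family (-0.69, adjusted p = 0.000404, edgeR), and Coa7 (-0.26, adjusted p = 0.0184, edgeR).

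Complex III had the lowest median of the 3 complexes in heart. The 9 subunit genes had log2 fold changes from -0.54 to -0.04 with a median of -0.17, against -0.02 over all genes tested. Uqcrfs1, the Rieske iron-sulfur protein (ENSMUSG00000038462, chromosome 13 from 30540308 to 30545362), measured 338, 315, 319, 304 and 318 CPM in Taz-KD hearts, against 432, 459, 450, 496 and 482 CPM in WT hearts. The groups were far apart relative to their spread (log2 fold change -0.54 ± 0.06 SE, edgeR adjusted p = 4.02e-05). Uqcr11, the smallest subunit, measured 92.7 ± 13.5 CPM in Taz-KD hearts and 125 ± 17.0 CPM in WT hearts (SD, n = 5; log2 fold change -0.43 ± 0.11 SE, edgeR adjusted p = 0.0142), and 1 Taz-KD heart, R1796, lay within the WT range. A processed pseudogene of Uqcr11, Gm16418, with 98.8% identity over 171 bases, took 3140 counts beside 33156 of the gene. The core subunits Uqcrc1 and Uqcrc2 measured 88.9% and 88.4% of WT and Cyc1, the cytochrome c1 that hands electrons to cytochrome c, 94.8%, and none of these passed.

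Assembly factors of complex III did not move together. Uqcc1, which supports the making of cytochrome b, measured 80.6, 78.5, 80.7, 75.4 and 82.7 CPM in Taz-KD hearts, against 92.3, 104, 92.6, 120 and 112 CPM in WT hearts. It was lower in all Taz-KD hearts (log2 fold change -0.39 ± 0.07 SE, edgeR adjusted p = 0.00257). Its partners Uqcc2 and Uqcc3 had log2 fold changes of 0.12 and 0.19, which did not pass. Of 3 further factors outside the rule, Ttc19, which clears fragments of the Rieske protein, was lower (-0.27, adjusted p = 0.0145, edgeR), as were 10.3% of all genes. Bcs1l and Lyrm7, which insert the Rieske protein, were at -0.06 and 0.24 and did not pass. Cycs, the mobile electron carrier, measured 93.0% of WT (log2 fold change -0.10 ± 0.13 SE, edgeR adjusted p = 0.607).

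**Figure D4:**
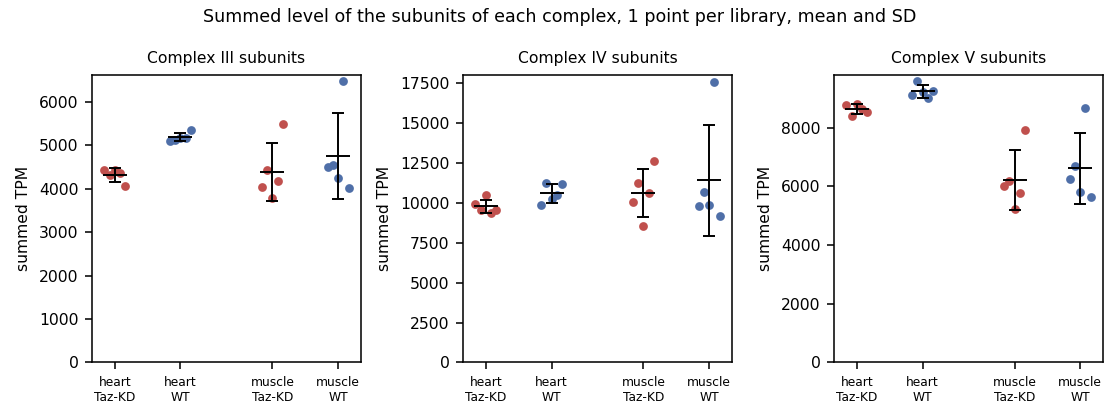
Summed TPM of the nuclear subunit genes of complex III (9 genes), complex IV (18 genes, both forms of each pair included) and complex V (16 genes) per library in heart and muscle, with mean ± SD. In heart the Taz-KD libraries lie below the WT libraries for complexes III and V and overlap for complex IV. The separation of complexes III and V holds in TPM and not in summed CPM. In muscle the libraries overlap in all 3 panels.

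As sums over the subunits, complex III measured 4315 ± 154 TPM in Taz-KD hearts and 5181 ± 96.2 TPM in WT hearts (83.3%, with no overlap). Complex IV measured 9770 ± 436 TPM in Taz-KD and 10600 ± 581 TPM in WT (92.2%, overlapping), and complex V 8640 ± 170 TPM in Taz-KD and 9233 ± 217 TPM in WT (93.6%, with no overlap). TPM carries no correction for composition. The same counts gave 97.4% as much TPM per CPM in Taz-KD hearts as in WT hearts on average. Mean TPM ratios thus lie slightly below CPM ratios. The factor also varied between libraries. Atp5b measured 2165 TPM and 3448 CPM in Taz-KD R2, and 2031 TPM and 2701 CPM in WT R3. Summed in CPM, the subunits of complexes III and V overlapped between genotypes, so that their separation holds in TPM only.

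ATP synthase genes stayed close to WT, with log2 fold changes from -0.31 to 0.31 and a median of -0.03 over 17 members. The c subunit of the rotor ring is encoded by 3 genes that give the same mature protein. Of these Atp5g3 (chromosome 2 from 73908447 to 73911326) measured 377, 334, 416, 359 and 393 CPM in Taz-KD hearts, against 457, 472, 424, 488 and 494 CPM in WT hearts. The groups did not overlap, but the nearest values were close (log2 fold change -0.31 ± 0.07 SE, edgeR adjusted p = 0.00716; -0.34 and adjusted p = 0.223 in 1 fit of all 20 libraries). Atp5g1 and Atp5g2 were at 106% and 109% of WT and did not pass. Of the summed TPM of the 3 genes, Atp5g3 took 58.4% ± 1.77 in Taz-KD hearts and 65.3% ± 1.93 in WT hearts, and Atp5g2 16.5% ± 0.741 in Taz-KD and 13.6% ± 1.27 in WT (SD, n = 5; no overlap in either). The size of these shares depends on the exon length used, 4912 bases for Atp5g1 and 2181 bases for Atp5g3. A processed pseudogene of Atp5g1, Gm10039, with 99.8% identity over 411 bases, held 32869 counts beside 108628 of the gene in heart. These counts are not part of the shares, and how many of them stem from Atp5g1 was not tested. Without a length, Atp5g1 and Atp5g3 measured 363 and 376 CPM in Taz-KD hearts and 341 and 467 CPM in WT hearts. Atp5e, the epsilon subunit of the F1 stalk, measured 104 ± 15.3 CPM in Taz-KD hearts and 125 ± 4.97 CPM in WT hearts (SD, n = 5; log2 fold change -0.26 ± 0.09 SE, edgeR adjusted p = 0.0487). That call was lost in 14 of 22 alternatives, among them 9 of the 10 fits without 1 library. The catalytic subunit Atp5b was at 106% and Atp5a1, of the same hexamer, at 89.6% of WT, and neither passed. None of the 4 peripheral stalk and 4 membrane genes passed, with log2 fold changes from -0.23 to 0.31. Outside the rule, the inhibitor Atpif1, which blocks ATP hydrolysis, was higher (52.7 ± 10.8 CPM in Taz-KD and 30.4 ± 6.11 CPM in WT; log2 fold change 0.80, adjusted p = 0.00448, edgeR), and the F1 assembly factors Atpaf2 (-0.35, adjusted p = 0.00241) and Fmc1 (-0.47, adjusted p = 0.00360, edgeR) were lower, of 6 genes in that list. Over all genes 14.4% were higher and 10.3% lower.

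The other parts of the respiratory chain were lower in heart as well or did not pass. Over all genes tested in heart 10.3% were lower and 14.4% higher, which is the background for each count here. Of 36 nuclear complex I subunits 10 were lower and none higher, with a median log2 fold change of -0.14. The lowest was Ndufs1, of the electron-carrying arm (-0.47, adjusted p = 0.00216, edgeR). Of the 4 complex II subunits the membrane anchors Sdhc (-0.27, adjusted p = 0.00849) and Sdhd (-0.19, adjusted p = 0.0430, edgeR) were lower, with a median of -0.19. None of 5 tested mitochondrially encoded genes of complexes III to V passed (median 0.03). Of 11 nuclear regulators of respiratory genes, Esrrb, an orphan receptor, was lower (-0.54, adjusted p = 0.00759, edgeR) and none was higher. Among those that did not pass, the coactivator Ppargc1a was at -0.16 (adjusted p = 0.576, edgeR).

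In femur muscle none of the 55 members passed the test (edgeR), against 0.0186% of the 16145 genes tested (3 genes, of which 0.0124% higher and 0.00619% lower), and for no member did the libraries of the genotypes separate, against 2.14% of all genes. DESeq2 and limma-voom also called none. At an unadjusted p under 0.05 there were 2 members with each of the 3 tools, Cox6a1 and Uqcc1, against 14.9% of all genes with edgeR. The median log2 fold change was 0.01 over the members and -0.02 over all genes. Levels of the 55 members were 51.3% to 126% of WT.

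Cox6a1 had the largest difference in muscle, with 23.3, 20.5, 19.3, 23.4 and 28.5 CPM in the Taz-KD muscles A34, A39, A52, A56 and A58, against 78.2, 33.5, 31.0, 57.4 and 23.8 CPM in the WT muscles A33, A40, A51, A55 and A57. The highest values were those of A33 and A55, the WT muscles that stood apart in adipocyte and slow myofibre markers (log2 fold change -0.96 ± 0.29 SE, edgeR adjusted p = 0.311). Without these 2 libraries the log2 fold change was -0.36 (adjusted p = 0.937, edgeR), from 23.0 CPM in Taz-KD muscles and 29.4 CPM in the 3 remaining WT muscles. Cox8a showed the same 2 libraries, with 37.8, 34.4, 25.5, 38.8 and 43.4 CPM in Taz-KD muscles, against 81.9, 38.2, 34.3, 65.1 and 25.7 CPM in WT muscles (log2 fold change -0.45, adjusted p = 0.458, edgeR), and without them the direction turned (0.13, adjusted p = 0.969, edgeR). The part of other cells and fibre types in these values was not tested.

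Cox7a1 measured 148, 178, 105, 142 and 169 CPM in Taz-KD muscles, against 121, 155, 122, 267 and 133 CPM in WT muscles, and Cox8b 150, 160, 160, 154 and 215 CPM in Taz-KD, against 122, 195, 188, 305 and 173 CPM in WT. The muscle forms thus overlapped fully between genotypes, with A55 highest in both. Cox7a1 took 74.7% ± 1.32 of its pair in Taz-KD muscle and 76.2% ± 1.83 in WT muscle, and Cox8b 88.9% ± 1.79 in Taz-KD and 86.6% ± 8.30 in WT (SD, n = 5). The lowest WT share of Cox8b was the 71.9% of A33, and without A33 and A55 it averaged 88.9% ± 1.79 in Taz-KD muscle and 90.7% ± 1.19 in WT muscle (SD, n = 5 and 3). Cox7a2 measured 88.1, 94.2, 62.6, 88.9 and 108 CPM in Taz-KD muscles, against 66.8, 89.0, 76.0, 127 and 70.9 CPM in WT muscles. Cox6a2 measured 1193, 1440, 910.5, 1427 and 1055 CPM in Taz-KD muscles, against 649.6, 1066, 922, 1674 and 1035 CPM in WT muscles. Both overlapped, as did Cox4i2, with 2.63, 2.15, 2.08, 2.46 and 3.16 CPM in Taz-KD muscles, against 2.14, 3.56, 2.36, 5.24 and 2.21 CPM in WT muscles. Ndufa4l2 measured 10.3, 8.13, 8.70, 11.1 and 11.1 CPM in Taz-KD muscles, against 8.36, 12.04, 10.4, 15.4 and 10.2 CPM in WT muscles, again with A55 highest. Uqcc1, lower in Taz-KD hearts, measured 116, 119, 106, 122 and 116 CPM in Taz-KD muscles, against 86.8, 107, 88.7, 77.9 and 118 CPM in WT muscles (log2 fold change 0.28 ± 0.12 SE, edgeR adjusted p = 0.329).

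The genotype effect was then compared between tissues as an interaction over all 20 libraries. It differed for 5 of 55 members (9.09%), against 4.62% of the 20612 genes tested. The difference, heart minus muscle, was 1.33 for Cox8a (standard error 0.29, adjusted p = 0.0110, edgeR), 1.45 for Cox6a1 (standard error 0.33, adjusted p = 0.0170), -0.73 for Uqcc1 (standard error 0.16, adjusted p = 0.0135), -1.07 for Cox7a1 (standard error 0.29, adjusted p = 0.0397) and -0.59 for Uqcrfs1 (standard error 0.16, adjusted p = 0.0460, edgeR). The muscle estimates behind these differences did not pass on their own, and without the WT muscles A33 and A55 those of Cox8a, Cox7a1 and Uqcrfs1 changed sign (0.13, 0.12 and 0.01, against -0.45, -0.10 and -0.02 with all libraries). Cox8b did not pass (-0.84, standard error 0.26, adjusted p = 0.0661, edgeR). Without these 2 muscles the differences shrank to 0.82 for Cox8a (adjusted p = 0.0117) and 0.92 for Cox6a1 (adjusted p = 0.0405), and Cox8b passed at -0.88 (adjusted p = 0.00384, edgeR). The calls of Cox7a1 and Uqcrfs1 were lost in 15 and 17 of 24 alternatives, all but 1 of them fits without 1 library.

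**Figure D5:**
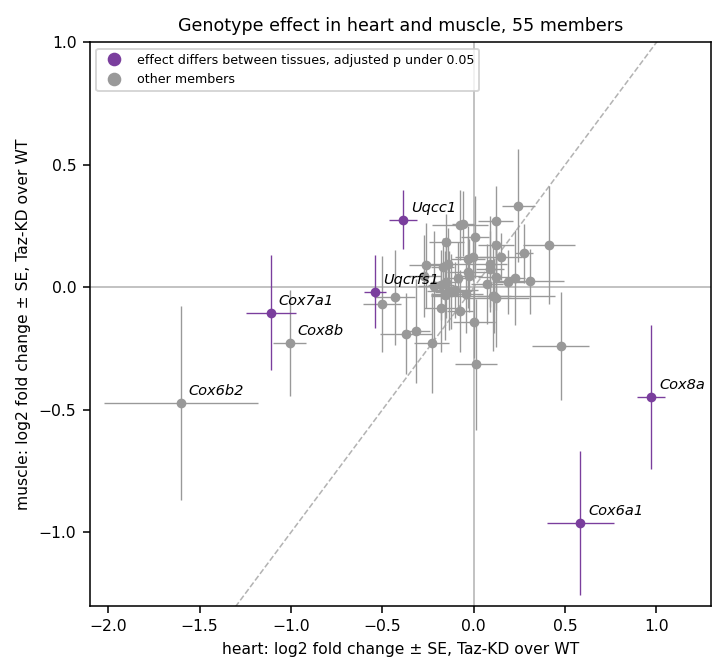
Log2 fold change of Taz-KD over WT in heart (horizontal) and femur muscle (vertical) for 55 members, with standard errors and a dashed line of equal change. The 5 members whose effect differs between tissues (purple) are Cox8a and Cox6a1 at the lower right and Uqcc1, Cox7a1 and Uqcrfs1 on the left, and Cox8b and Cox6b2, which did not pass, are labelled at the left.

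Levels of the members in WT animals were alike in both tissues for most genes: 46 of 55 lay within 2-fold in TPM, and heart over muscle had a median of 1.04. No test was made, since the tissues come from different mice and were counted into separate tables. The tissue isoforms were set differently, with Cox6a2 at 1948 ± 232 TPM in WT heart and 4058 ± 1438 TPM in WT muscle, and Cox7a1 at 1712 ± 236 TPM in WT heart and 776 ± 316 TPM in WT muscle (SD, n = 5). The most abundant member in WT heart was Atp5a1 (2443 ± 49.3 TPM), followed by Atp5b (2040 ± 83.5 TPM) and Cox6a2 (1948 ± 232 TPM). Atp5a1 and Uqcrc1 stood out, with 2443 ± 49.3 TPM and 508 ± 26.5 TPM in WT heart, against 55.7 ± 5.95 TPM and 13.4 ± 2.44 TPM in WT muscle. Their partner subunits Atp5b and Uqcrc2 measured 2040 and 548 TPM in WT heart, against 1704 and 321 TPM in WT muscle. The tables hold different sets of rows (47069 genes for heart, 53801 for muscle), the annotation behind each is not given in the sources used here, and its part in these 2 values was not tested. The levels of Atp5a1 and Uqcrc1 in muscle are uncertain for that reason. The same holds outside the rule for Ndufs3 and Cox20, at 150 and 29.9 CPM in WT heart, against 0.0133 and 0.0828 CPM in WT muscle. Genes that overlap or match other members differed between the tables as well. D430001F17Rik, opposite Atp5o, held 26378 counts in heart and 4 in muscle, and Emc8, opposite Cox4i1, 60334 and 7557. Gm11273, a match of Cox5b, held 0 and 15807. The part of counting in these values was not tested, which limits the levels of other members between tissues too.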

How the data were processed

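RNA was extracted from hearts and femur muscles and depleted of rRNA, and strand-specific (dUTP) libraries were read as paired 150 bp ends. Per the submitters' processing notes, the authors aligned reads with STAR to mm10 (GRCm38) and counted them per gene with featureCounts 1.6.4, with DESeq2 2.11.40.6 for their own comparisons. The deposited values are raw counts per gene, 1 table per tissue; for the annotation release, the strand setting and reads with several matches, the choice made is not given in the sources used here. Columns were matched to samples by the mouse number in their names, and all were used.

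Genotypes were compared within each tissue on the counts with the quasi-likelihood test of edgeR 4.0.16 (TMM factors, default filter on low counts, robust dispersion), with Benjamini-Hochberg adjustment over all genes tested and a threshold of 0.05. The difference between tissues was an interaction over all 20 libraries. Taz was tested with an exact permutation test. CPM are counts relative to the TMM-scaled library size, and TPM divide by the union of exons in GENCODE M21. Shares, sums and levels between tissues are descriptions. The scripts' fits were tested on simulated data. Copies were searched with blastn. Alternatives were DESeq2 1.42.0 and limma-voom (limma 3.58.1), other scale factors, other filters, 1 fit of all libraries, and fits without libraries; those without R1793 and R3 and without A33 and A55 were added after seeing the data. R 4.3.3 was used. Depth per library is given above, and precision is that of the 5 mice per group.

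Every member called in heart or in the interaction is named, with values per library for tissue isoforms of at least 1 CPM, for the called members with the smallest adjusted p and for those that moved against the majority; others are given by role. Protein sequences were not used here, so promoters are printed instead. Members and lists were chosen with earlier results of these data known.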

Additional observations from a re-analysis of the deposited data

Results flagged for a closer look

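In 84 groups of 5 libraries, covering 15 members and their pair shares, 9 single libraries lay far from the other 4 of their group, where chance alone gives about 1 in 20 groups. In heart these were Cox8a in Taz-KD R1793, at 155.8 CPM against 118.8 to 128.3 CPM in the other Taz-KD hearts, and Cox19 in WT R1791, at 16.76 CPM against 21.6 to 23.49 CPM in the other WT hearts. In muscle WT A55 was high for 3 members. Atp5e measured 309.3 CPM there against 179.7 to 217 CPM in the other WT muscles, Cox6c 586.7 CPM against 307.1 to 371.7 CPM, and Cox7a1 267.2 CPM against 121.2 to 154.5 CPM. Taz-KD A58 was high for Atp5e, at 315.7 CPM against 201.9 to 231.3 CPM in the other Taz-KD muscles, and for Cox8b, at 215.3 CPM against 149.9 to 160 CPM. WT A33 had the lowest shares of the muscle forms, with 89.55% for Cox6a2 against 96.78% to 97.82% in the other WT muscles, and 71.9% for Cox8b against 88.94% to 92.04%.

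The effect of genotype differed between tissues for 5 members, by a test of the interaction. Heart minus muscle it was 1.448 for Cox6a1 (adjusted p = 0.017), 1.327 for Cox8a (adjusted p = 0.011), -1.068 for Cox7a1 (adjusted p = 0.0397), -0.726 for Uqcc1 (adjusted p = 0.0135) and -0.5864 for Uqcrfs1 (adjusted p = 0.046), all on the log2 scale with edgeR.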

How the results depend on the processing

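The count of members called in heart was 14 (5 higher, 9 lower) and was computed under 22 alternatives. Members lower were 14 with DESeq2, 14 with upper-quartile factors and 16 with library sizes alone, which called 22 members in all. Members higher were 3 without a filter on low counts. In 1 fit of all 20 libraries 7 members were called, 1 of them higher. Without the hearts R2 and R3, 3 were higher and 15 lower, and without R1793 and R3, 3 were higher. With each heart left out in turn the count ran from 11 to 15, with 3 to 7 higher and 8 to 12 lower. Cox8a, Cox8b, Cox7a1, Uqcrfs1, Uqcc1 and Cox6c passed in all 22 alternatives and Cox6b2 in all 21 that tested it. Atp5g3, Cox7a2l and Uqcr11 were lost in the fit of all 20 libraries alone (adjusted p = 0.109 for Uqcr11, edgeR). Cox6a1 was lost in 9 of 22, with adjusted p from 0.00957 to 0.165, Cox19 in 14 of 22 (0.0176 to 0.188) and Atp5e in 14 of 22 (0.0116 to 0.255). No member changed direction with a call. In muscle no member was called under any alternative (0 with each muscle left out in turn), although DESeq2 called 145 genes of all and the fit of all 20 libraries 167. Library sizes alone moved the median log2 fold change of all genes in muscle to -0.16, against -0.02. Members whose effect differed between tissues numbered 5, against 3 with upper-quartile factors, and 3 to 7 with each library left out in turn. The causes were not tested.

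No paired analysis was possible because the replicate numbers only follow the order of the samples and the labels tie no Taz-KD mouse to a WT mouse. Depth limits only the lowest members: Cox6b2 rests on 52 and 139 counts, and Cox7b2 and Cox8c could not be tested.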
